A study of Mus musculus with 9 samples.

Results

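The collagen and laminin genes were followed through retinas of Balb/c mice, an albino strain, in 3 groups of 3 RNA-seq libraries, named control, light damage and A74 (retinas that had light damage and A74). Members were all protein-coding rows of the count table whose symbol has the form of a collagen chain (Col, a number, a and a number) or of a laminin chain (Lam, then a, b or c and a number). The rule gave 55 of 55414 rows, 44 collagen and 11 laminin genes, and 46 of the 55 (35 collagen and all 11 laminin genes) had enough reads to be tested in a fit over 17272 genes. The labels name A74 without spelling it out, the series title concerns inhibition of the receptor P2RX7, and the sources used here give no dose, vehicle, light exposure, time or age. All 9 libraries carry 1 batch label, and no label ties a library to an animal. A p-value here therefore sets a difference against the scatter among libraries, which may be technical.

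Collagens are trimeric extracellular proteins whose chains wind into a helix. Fibrillar collagens build fibres, collagen IV forms the network of basement membranes, and other families decorate fibrils, anchor membranes or span the cell surface. Laminins are heterotrimers of an alpha, a beta and a gamma chain that assemble on cells and start a basement membrane. In the eye both families make up the inner limiting membrane, the vascular basement membranes, Bruch's membrane, the lens capsule, the vitreous and the stroma of sclera and cornea, and laminins also lie in the matrix around photoreceptors and their synapses.

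Library totals ran from 14787972 to 18740434 counts. The libraries differed within every group in RNA of anterior eye tissue, read here from Ltbp2 (a microfibril-binding protein), Fbln1 (fibulin 1) and Optc (opticin, made by the ciliary body). Their summed level in CPM (counts as a share of the library, scaled by TMM) was 99.7, 129 and 4.25 in controls 1, 2 and 3, 108, 86.4 and 3.08 in light damage 1, 2 and 3, and 52.7, 4.25 and 3.19 in A74 1, 2 and 3. Controls 1 and 2, light damage 1 and 2 and A74 1 thus form a high set of 5 libraries, and the other 4 form a low set. Counts of Y-linked transcripts were 4752, 5832 and 0 in the controls, 4249, 5710 and 0 with light damage and 0, 0 and 0 with A74, so that every library with them was in the high set. Light damage 3 had neither these nor Xist above 1 count, and A74 1 carried 784 CPM of lens markers against 3.67 to 104 CPM in the other 8. Rod markers, the labelled tissue, summed to 29662 to 56071 CPM in the 9 libraries. Groups and sets are unbalanced, with 2, 2 and 1 libraries of the 3 groups in the high set.

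Collagen and laminin RNA was a small share of the retina's, 0.0635% to 0.0934% of each library's counts. The summed level of the 55 genes was 749, 795 and 816 CPM in the controls, 876, 773 and 625 CPM with light damage and 675, 697 and 754 CPM with A74, and the 3 groups overlapped. Set per kilobase of the longest coding transcript, the level in controls was led by Col23a1, a transmembrane collagen, at 16.0 ± 0.647 CPM per kb (SD, n = 3). Col9a1 at 11.9 ± 1.16 and Col6a1 at 11.3 ± 1.63 CPM per kb followed and did not differ beyond their spread (SD, n = 3). Col2a1 at 8.76 ± 1.44, Col20a1 at 8.44 ± 0.743 and Col18a1 at 8.41 ± 3.86 CPM per kb came next and likewise lay within each other's spread (SD, n = 3). The most abundant laminin chains per kb were Lamc1 at 4.23 ± 0.436, Lamb1 at 4.11 ± 0.333 and Lamb2 at 3.09 ± 0.363 CPM per kb (SD, n = 3). The alpha chains were lower, Lama5 at 1.51 ± 0.0705 and Lama1 at 1.03 ± 0.0511 CPM per kb (SD, n = 3).

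**Figure D1:**
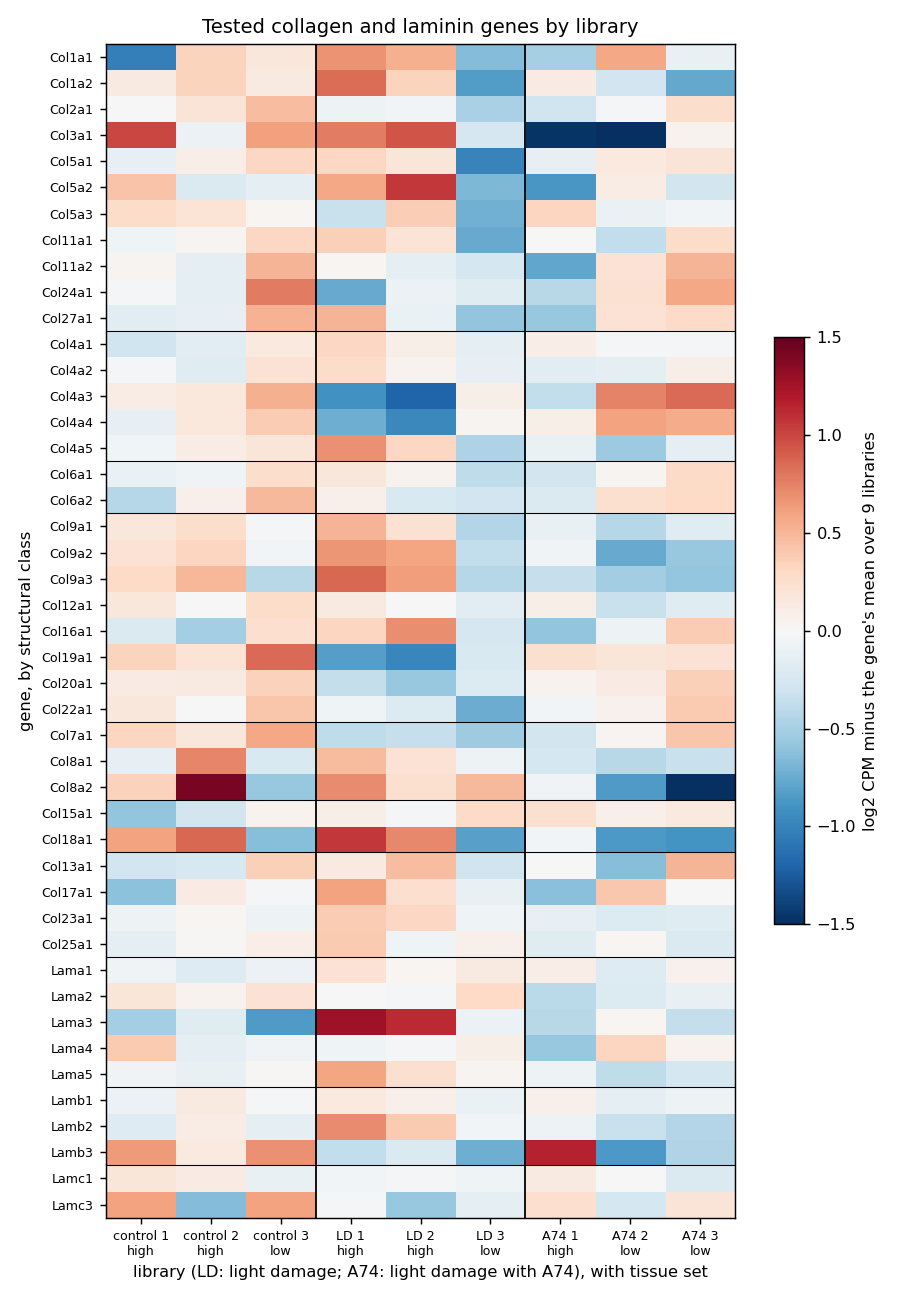
Each row is 1 of 45 tested collagen and laminin genes, each column 1 of the 9 libraries, and the colour is the log2 CPM minus the gene's mean over libraries, with the colour scale ending at 1.5 in both directions. Over all 46 tested genes, light damage 1 held the highest of 9 values for 18 and light damage 3 the lowest for 10, 6 of them fibrillar collagens, while A74 2 held the lowest for 11.

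The first question was which of these genes light damage changed. Of the 46 tested, 3 rose (Lama3, Lama5 and the transmembrane collagen Col23a1) and 3 fell (Col19a1, Col20a1 and Col7a1) at an edgeR quasi-likelihood adjusted p under 0.05, the Benjamini-Hochberg adjustment running over all 17272 genes. Over all genes tested 25.8% were called, 13.0% as higher and 12.8% as lower, so the members' 6 of 46 is below that background. Their fold changes were split evenly, 23 above and 23 below 0, with a median log2 fold change of -0.024 against 0.0080 for all genes. The libraries of the 2 groups did not overlap for 10 of the 46 genes, 3 higher and 7 lower, where 40.6% of all genes did not overlap. With the replicate number as a block, the count was 4 higher and 5 lower, the same 6 genes with Col24a1, Col4a4 and Lamb2. In bulk retina, fewer cells of a type and less RNA per cell cannot be told apart.

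The second question was how the A74 libraries differed from light damage alone. Of the 46 genes, 3 were higher with A74 (Col19a1, Col20a1 and Col7a1) and 4 were lower (Col23a1, Lama3, Lama5 and Lamb2) at an edgeR adjusted p under 0.05. Over all genes 18.3% were called, 9.07% as higher and 9.19% as lower. The members' median log2 fold change was -0.10 against -0.00031 for all genes, with 19 above and 27 below 0. Groups did not overlap for 11 genes, 5 higher and 6 lower, beside 35.2% of all genes. This comparison and the first share the light damage libraries, so opposite signs between them are partly built in, and each gene's own values are given side by side. With presence of Y-linked transcripts as a term, 1 of the 7 calls remained, Col20a1 at 0.40 (SE 0.10, edgeR adjusted p = 0.0390). Calls over all genes fell too with that term, from 1566 to 337 higher and from 1587 to 408 lower. All 3 A74 libraries lack Y-linked transcripts, as control 3 does, and light damage 3 is the only light damage library that does. Xist stood at 18139, 17227 and 18172 counts with A74 and at 4, 2 and 1 with light damage. A difference between A74 and light damage therefore cannot be told apart from one by presence of Xist. In controls 1, 2 and 3 Xist had 7, 1 and 22253 counts.

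**Figure D2:**
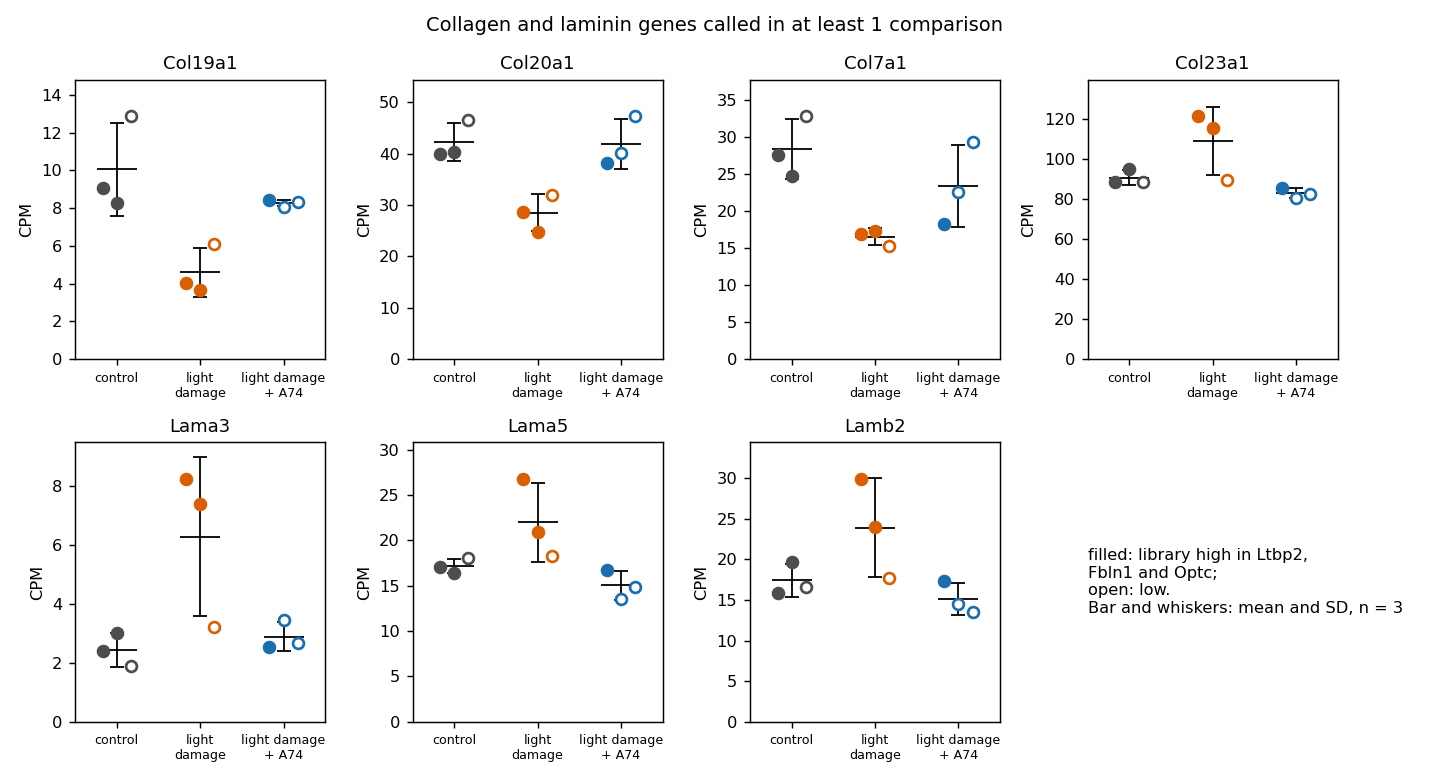
Each panel shows 1 of the 7 genes called in either comparison, with CPM on the y axis from 0 and 1 point per library in each of the 3 groups, filled by high or low anterior tissue set, with black bars for the mean and SD (n = 3). Col19a1, Col20a1 and Col7a1 lie lower in all 3 light damage libraries than in any control, whereas for Col23a1, Lama3, Lama5 and Lamb2 light damage 1 and 2 stand above light damage 3.

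Collagens that fell with light damage belong to fibril-surface and anchoring families. Col19a1, a fibril-associated (FACIT) collagen, stood at 9.04, 8.26 and 12.9 CPM in the controls, 4.03, 3.64 and 6.10 CPM with light damage and 8.42, 8.07 and 8.30 CPM with A74. All light damage libraries lay below all others. In log2 terms, light damage minus control was -1.14 (SE 0.20, edgeR adjusted p = 0.000782), and A74 minus light damage was 0.86 (SE 0.20, edgeR adjusted p = 0.00835). The fall was of like size within the high set (-1.17, 2 libraries against 2) and the low set (-1.08, 1 against 1). The difference of A74 from light damage was 1.14 in the high set and 0.42 in the low set, and its call was lost without light damage replicate 2.

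Col20a1, another FACIT collagen, was measured at 40.0, 40.3 and 46.6 CPM in the 3 control libraries, 28.6, 24.8 and 32.0 CPM after light damage and 38.1, 40.1 and 47.3 CPM with A74. The light damage libraries were again the lowest 3 of the 9. Its log2 level fell by 0.57 with light damage (SE 0.10, edgeR adjusted p = 0.00108) and was 0.56 higher with A74 than with light damage (SE 0.10, edgeR adjusted p = 0.00235). Within the sets the light damage difference was -0.59 (high) and -0.54 (low), and the A74 difference 0.52 and 0.45. Of the 7 genes, Col20a1 kept its call in both comparisons under each of the 18 other fits tried, although its change is under a 2-fold minimum in both.

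Col7a1 encodes the collagen of anchoring fibrils, which tie epithelial basement membranes to stroma. It stood at 27.6, 24.8 and 32.8 CPM without light damage, 17.0, 17.4 and 15.3 CPM with it and 18.2, 22.6 and 29.4 CPM with light damage and A74. The light damage libraries did not overlap either other group, and A74 3 lay within the control range. Its log2 difference with light damage was -0.78 (SE 0.16, edgeR adjusted p = 0.00366), with -0.61 in the high and -1.10 in the low set. A74 minus light damage was 0.50 (SE 0.16, edgeR adjusted p = 0.0459), but 0.089 in the high set and 0.76 in the low set. That second call was lost in 10 of 18 settings, among them leaving out control replicate 1, any light damage replicate, A74 replicate 2 or A74 replicate 3, with an edgeR adjusted p of up to 0.283. It was also lost with the tissue set as a term, at 0.40 (SE 0.14, edgeR adjusted p = 0.0725), and with the anterior level as a covariate, at 0.39 (SE 0.15, edgeR adjusted p = 0.0941).

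These 3 genes fell in the libraries in which rod markers were lower (51419 to 56071 CPM in the controls, 29662 to 43340.0 CPM with light damage and 49811 to 52414 CPM with A74, 5 of 8 markers called lower with light damage) and Müller glia and microglia markers were higher. The 8 Müller markers summed to 4085 to 4683 CPM in the controls, 4928 to 5413 CPM with light damage and 4060.3 to 4604 CPM with A74, and the 8 microglia and macrophage markers to 34.5 to 42.6 CPM in the controls, 111 to 185 CPM with light damage and 38.8 to 53.5 CPM with A74. In each of these 2 lists 7 of 8 genes were called higher with light damage and 7 of 8 lower with A74 than with light damage. Over all genes 13.0% were called higher and 12.8% lower with light damage, and 9.19% lower with A74 than with light damage. The part of these cell types in the collagen changes was not tested.

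Genes that rose with light damage were the laminin alpha chains Lama3 and Lama5, and Col23a1. The other alpha chains, Lama1, Lama2 and Lama4, were not called. Lama3, the alpha chain of the laminins of hemidesmosomes, stood at 2.40, 3.02 and 1.89 CPM in the controls, 8.24, 7.38 and 3.21 CPM with light damage and 2.55, 3.47 and 2.66 CPM with A74. Light damage 1 and 2 stood well above all other libraries and light damage 3 just above the controls, inside the A74 range. Light damage minus control was 1.37 in log2 (SE 0.31, edgeR adjusted p = 0.00579), 1.51 in the high and 0.77 in the low set. A74 minus light damage was -1.12 (SE 0.30, edgeR adjusted p = 0.0210), -1.61 in the high set and -0.064 in the low set. The second call was lost without light damage replicate 1 or 2 or without A74 replicate 1 or 3. With the anterior level as a covariate the difference was -0.79 (SE 0.26, edgeR adjusted p = 0.0546). Over the 18 settings the edgeR adjusted p reached 0.481.

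Lama5, the alpha chain of widespread basement membrane laminins, measured 17.0, 16.4 and 18.0 CPM in the 3 control libraries, 26.8, 20.9 and 18.2 CPM after light damage and 16.8, 13.6 and 14.8 CPM with A74. Light damage 3 sat only just above the highest control. Its log2 difference was 0.36 with light damage (SE 0.13, edgeR adjusted p = 0.0483) and -0.55 for A74 against light damage (SE 0.13, edgeR adjusted p = 0.00793). Within sets the first was 0.51 (high) and 0.020 (low), and the second -0.50 and -0.36. The light damage call was lost on leaving out any 1 of the libraries except light damage 3 and A74 1, with an edgeR adjusted p of up to 0.261.

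Lamb2, the beta chain found at synapses and in the retina's inner limiting membrane, stood at 15.9, 19.7 and 16.6 CPM without light damage, 29.9, 24.0 and 17.7 CPM with it and 17.3, 14.5 and 13.5 CPM with light damage and A74. Light damage 3 fell inside the control range. The light damage difference was 0.46 (SE 0.17, edgeR adjusted p = 0.0696) and A74 minus light damage -0.66 (SE 0.17, edgeR adjusted p = 0.0203). With the tissue set as a term the first became 0.44 (SE 0.12, edgeR adjusted p = 0.0127), and with the replicate block 0.43 (SE 0.13, edgeR adjusted p = 0.0311). Within the sets light damage minus control was 0.59 (high) and 0.096 (low). The A74 call was lost without light damage replicate 2, A74 replicate 2 or A74 replicate 3. Against Lamb1, the alternative beta chain, the ratio of Lamb2 per kb was 0.734, 0.781 and 0.737 in the controls, 1.18, 0.989 and 0.831 with light damage and 0.715, 0.701 and 0.621 with A74, so the light damage ratios lay above the other 6.

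Col23a1, a transmembrane collagen, stood at 88.5, 94.8 and 88.4 CPM in the controls, 121, 116 and 89.3 CPM with light damage and 85.5, 80.4 and 82.3 CPM with A74. Light damage 1 and 2 were the highest of the 9, and light damage 3 lay within the controls. The log2 difference was 0.26 with light damage (SE 0.091, edgeR adjusted p = 0.0478), 0.37 in the high set and 0.015 in the low set. A74 minus light damage was -0.39 (SE 0.091, edgeR adjusted p = 0.00989), and all A74 libraries lay below all light damage libraries. The first call was lost on leaving out any 1 library other than light damage 3, with an edgeR adjusted p of up to 0.143. Of the other transmembrane collagens, Col25a1, found with amyloid plaques and in motor axon targeting, stood at 16.5, 18.5 and 19.6 CPM in the 3 control libraries, 23.9, 17.5 and 19.2 CPM after light damage and 16.1, 18.7 and 15.7 CPM with A74 and its groups overlapped. Col13a1 (0.778 to 1.73 CPM) and Col17a1 (1.47 to 3.43 CPM), the collagen of hemidesmosomes, were low and not called.

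Over all genes 13.0% were called higher with light damage, and the difference of the marker counts below from that share was not tested. The 8 endothelial markers, beside these laminins, summed to 239 to 258 CPM in the controls, 369 to 489.8 CPM with light damage and 247 to 272 CPM with A74, and 2 of the 8 (Erg and Kdr) were called higher with light damage. The 4 astrocyte markers summed to 46.2 to 49.0 CPM in the controls, 90.1 to 186 CPM with light damage and 39.0 to 44.3 CPM with A74, and 2 of them were called higher. The 8 pericyte and smooth muscle markers summed to 112 to 121 CPM in the controls, 120.5 to 134 CPM with light damage and 99.3 to 124 CPM with A74, and none was called with light damage. Their part in the laminin differences was not tested.

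Promoter sequence of the called genes is shown for the members on which the group differences turn. RefSeq's promoter table (build GRCm38.p6) matched 40 of the 55 members through 44 promoters. The 250 bases before the start site are printed 5′ to 3′ on the gene's strand for 6 of the 7 called members. Capitals mark matches on either strand to the CCAAT box, to the GC box GGGCGG, or to the photoreceptor homeobox core TAATCC.
Col19a1 chr1:24587438-24587687 (minus strand): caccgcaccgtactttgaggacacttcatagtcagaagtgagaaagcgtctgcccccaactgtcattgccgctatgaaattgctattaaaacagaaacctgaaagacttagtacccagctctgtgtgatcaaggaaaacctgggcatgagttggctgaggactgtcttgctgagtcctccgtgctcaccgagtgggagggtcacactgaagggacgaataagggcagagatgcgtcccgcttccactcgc
Col20a1 chr2:180986285-180986534 (plus strand): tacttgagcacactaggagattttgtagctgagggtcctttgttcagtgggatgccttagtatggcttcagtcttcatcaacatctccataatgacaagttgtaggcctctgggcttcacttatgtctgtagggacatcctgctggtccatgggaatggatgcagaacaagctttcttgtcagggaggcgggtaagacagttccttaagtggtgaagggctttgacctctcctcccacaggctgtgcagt
Col7a1 chr9:108953336-108953585 (plus strand): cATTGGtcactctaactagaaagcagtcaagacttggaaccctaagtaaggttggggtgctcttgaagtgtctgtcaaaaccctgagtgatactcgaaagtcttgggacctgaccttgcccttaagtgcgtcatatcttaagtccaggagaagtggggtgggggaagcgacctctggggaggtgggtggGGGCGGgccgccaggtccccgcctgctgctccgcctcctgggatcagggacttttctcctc
Col23a1 chr11:51289670-51289919 (plus strand): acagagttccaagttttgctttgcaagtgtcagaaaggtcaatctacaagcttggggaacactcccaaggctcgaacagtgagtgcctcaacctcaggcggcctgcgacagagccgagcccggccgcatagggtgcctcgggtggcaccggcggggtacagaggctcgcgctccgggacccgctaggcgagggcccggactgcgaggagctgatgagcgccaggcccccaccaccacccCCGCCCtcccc
Lama5 chr2:180225860-180226109 (minus strand): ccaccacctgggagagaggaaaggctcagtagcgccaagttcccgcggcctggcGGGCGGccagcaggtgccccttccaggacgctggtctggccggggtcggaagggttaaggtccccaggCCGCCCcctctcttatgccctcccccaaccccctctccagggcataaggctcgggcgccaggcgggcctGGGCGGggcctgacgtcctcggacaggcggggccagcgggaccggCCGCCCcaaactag
Lamb2 chr9:108479612-108479861 (plus strand): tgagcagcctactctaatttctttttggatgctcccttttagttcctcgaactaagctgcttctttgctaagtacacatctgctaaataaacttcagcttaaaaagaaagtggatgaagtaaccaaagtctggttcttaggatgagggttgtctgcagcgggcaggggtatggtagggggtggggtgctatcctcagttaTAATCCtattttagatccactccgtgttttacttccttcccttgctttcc

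Col19a1 and Col20a1 held none of the 5 motifs searched (these 3, TGACTCA for AP-1 and TATAAA for the TATA box) in the 250 bases shown. Col7a1 held a CCAAT box and a GC box, Col23a1 a GC box, Lama5 4 GC boxes in a stretch of 72.4% GC, and Lamb2 a TAATCC. In the 250 bases before the start site, GGGCGG occurred in 24 of the 44 member promoters (54.5%) and in 32.7% of the table's 32851. CCAAT occurred in 14 members' promoters and 33.9% of all, TATAAA in 5 and 12.4%, TAATCC in 1 and 6.25%, and TGACTCA in 1 and 4.46%. A match is a description of letters and not a site in use.

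Among collagen IV genes, the chains of the basement membrane network, none of the 5 tested was called in the first 2 comparisons. Over all genes 25.8% and 18.3% were called there. The ubiquitous pair Col4a1 and Col4a2 and the specialised pair Col4a3 and Col4a4 behaved differently between libraries. Col4a1 stood at 34.1, 37.9 and 46.4 CPM in the controls, 52.4, 44.7 and 38.1 CPM with light damage and 45.1, 41.3 and 41.6 CPM with A74. Col4a2 stood at 35.6, 32.2 and 42.2 CPM in the 3 control libraries, 44.1, 37.9 and 33.6 CPM after light damage and 32.6, 33.0 and 38.7 CPM with A74. The groups overlapped for both, with light damage differences of 0.19 (SE 0.12, edgeR adjusted p = 0.298) and 0.073 (SE 0.12, edgeR adjusted p = 0.696). Within the sets the sign turned, 0.43 (high) and -0.28 (low) for Col4a1 and 0.27 and -0.33 for Col4a2.

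Col4a3, which with Col4a4 and Col4a5 makes a network known from the kidney and from the retina's limiting membranes, measured 35.4, 36.6 and 47.5 CPM without light damage, 17.4, 14.3 and 34.9 CPM with it and 25.4, 55.2 and 59.3 CPM with light damage and A74. Light damage 1 and 2 were the lowest, A74 1 was next, and light damage 3 lay just under the controls. The light damage difference was -0.85 (SE 0.46, edgeR adjusted p = 0.234), and with the tissue set as a term it was -0.93 (SE 0.17, edgeR adjusted p = 0.00508). Neither DESeq2 nor any fit leaving out 1 library called this difference. It was -1.33 (SE 0.14) without light damage replicate 3 and A74 replicate 1 together, a setting added after the data were seen. That setting takes out the highest light damage value, so a larger difference there was built in. Col4a4 measured 13.3, 16.2 and 18.8 CPM in the controls, 8.72, 7.44 and 14.9 CPM with light damage and 15.4, 22.0 and 21.4 CPM with A74. Its light damage difference was -0.65 (SE 0.27, edgeR adjusted p = 0.127), -0.68 (SE 0.13, edgeR adjusted p = 0.000828) with the tissue set as a term and -0.67 (SE 0.17, edgeR adjusted p = 0.0116) with the replicate block.

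A74 minus light damage was 1.08 for Col4a3 (SE 0.45, edgeR adjusted p = 0.160) and 0.93 for Col4a4 (SE 0.27, edgeR adjusted p = 0.0506). All A74 libraries lay above all light damage libraries for Col4a4 and not for Col4a3. With the tissue set as a term these were 0.79 (SE 0.18, edgeR adjusted p = 0.0213) and 0.76 (SE 0.13, edgeR adjusted p = 0.000919). DESeq2 called Col4a4 and not Col4a3 here, and no fit leaving out a single library called Col4a3. Both genes were lower in the high set of every group, high minus low being -0.40, -1.14 and -1.17 (log2, control, light damage and A74) for Col4a3 and -0.35, -0.88 and -0.49 for Col4a4. Within the sets light damage minus control was -1.19 (high) and -0.44 (low) for Col4a3, and -0.88 and -0.34 for Col4a4.

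Col4a5, the third chain of that network, is encoded apart from them and stood at 9.40, 10.4 and 10.9 CPM in the 3 control libraries, 15.5, 12.0 and 7.02 CPM after light damage and 9.06, 6.64 and 8.77 CPM with A74, overlapping in the first 2 comparisons, with differences of 0.46 in the high and -0.64 in the low set. Col4a6 had at most 18 counts in a library and was not tested. Per kb, Col4a3 relative to Col4a1 was 0.802, 0.746 and 0.791 in the controls, 0.257, 0.247 and 0.708 with light damage and 0.436, 1.03 and 1.10 with A74. The ratio was thus low in light damage 1 and 2 and A74 1, the high-set libraries with light damage, and just under the control level in light damage 3. Col4a1 to Col4a2 held between 0.934 and 1.35 over the 9 libraries, and Col4a3 to Col4a4 between 1.96 and 3.28.

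The stretch shared by Col4a3 and Col4a4 is shown because the 2 genes moved together and are transcribed head to head. In RefSeq's promoter table (GRCm38.p6) the start of Col4a4 (minus strand) and that of Col4a3 (plus strand) enclose 71 bases, chr1:82586850-82586920, printed on the plus strand with no match to the 5 motifs.
Col4a4 to Col4a3: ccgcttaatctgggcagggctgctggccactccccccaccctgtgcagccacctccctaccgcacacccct
The starts of Col4a1 and Col4a2 on chromosome 8 overlap by 22 bases, and those of Col4a6 and Col4a5 on chromosome X lie 1342 bases apart. Reads from overlapping ends cannot be told apart without strand, which the sources used here do not give.

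**Figure D3:**
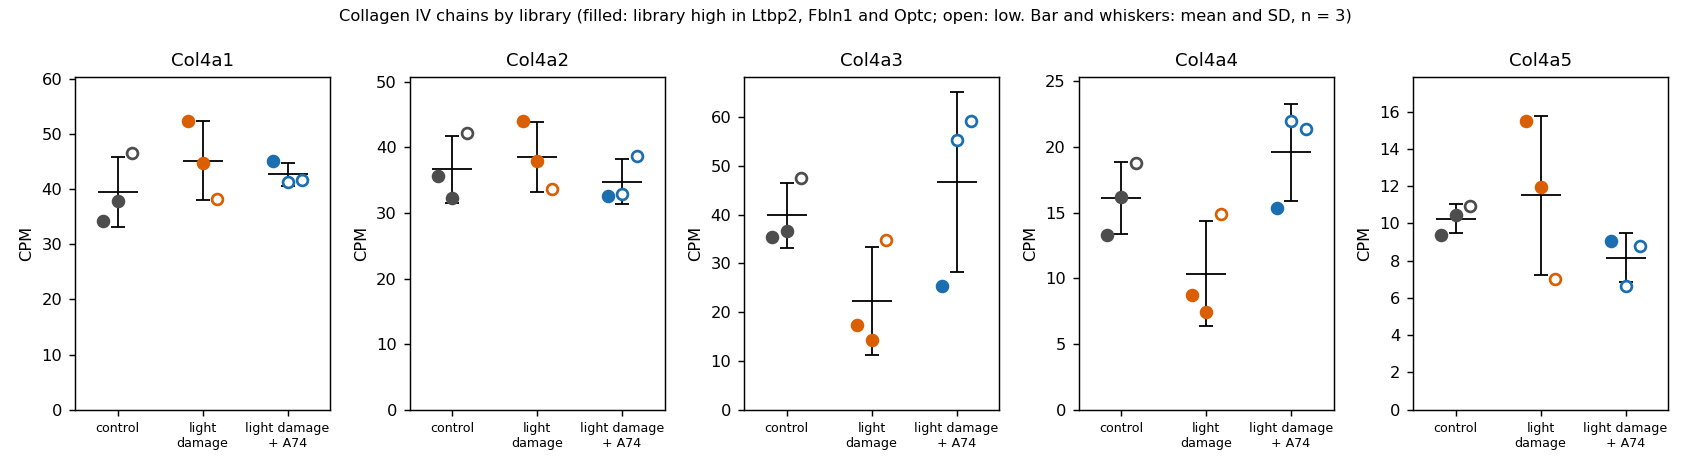
CPM on the y axis of the 5 tested collagen IV genes, with 1 point per library in each of the 3 groups, filled by high or low anterior tissue set, and black bars for the mean and SD (n = 3). Col4a3 and Col4a4 are low in light damage 1 and 2 but not in light damage 3, while Col4a1 and Col4a2 overlap across the groups.

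None of the 11 fibrillar collagens was called in any of the 3 comparisons, beside 25.8%, 18.3% and 0.892% of all genes. In the high set 7 of 11 were higher with light damage (median 0.29), and in the low set, 1 library against 1, all 11 were lower (median -0.95). Col2a1, the main collagen of the vitreous, stood at 38.0, 43.5 and 52.6 CPM in the controls, 36.0, 37.1 and 27.2 CPM with light damage and 31.0, 37.4 and 45.9 CPM with A74. Its light damage libraries lay below all controls, at -0.42 for light damage minus control (SE 0.19, edgeR adjusted p = 0.149), while A74 overlapped both other groups. Col1a2, of collagen I, stood at 11.0, 12.6 and 11.0 CPM in the 3 control libraries, 17.9, 12.6 and 5.58 CPM after light damage and 10.8, 8.19 and 5.84 CPM with A74, with light damage 1 highest and light damage 3 lowest. Its partner chain Col1a1 stayed at 0.353 to 1.14 CPM, so the chains' ratio per kb ran from 8.44 to 34.4.

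Col11a2, a chain of the cartilage-type collagen XI, measured 18.4, 16.3 and 25.5 CPM without light damage, 18.2, 16.3 and 15.0 CPM with it and 10.4, 20.8 and 25.4 CPM with light damage and A74. Col24a1, a minor fibrillar collagen, stood at 9.82, 9.11 and 17.1 CPM in the controls, 5.90, 9.36 and 8.79 CPM with light damage and 7.46, 11.7 and 14.9 CPM with A74. Col27a1, known from cartilage, stood at 13.7, 14.2 and 22.2 CPM in the 3 control libraries, 21.9, 14.4 and 10.2 CPM after light damage and 10.4, 17.8 and 18.9 CPM with A74. The groups of all 3 overlapped. For Col24a1 the light damage difference was -0.58 (SE 0.34, edgeR adjusted p = 0.271), and -0.55 (SE 0.17, edgeR adjusted p = 0.0313) with the replicate block and -0.53 (SE 0.18, edgeR adjusted p = 0.0454) with the tissue set as a term. Neither DESeq2 nor any fit leaving out a single library called it. Col5a1, which nucleates collagen I fibrils, stayed at 3.80 to 9.44 CPM and its light damage difference turned between sets, 0.24 in the high and -1.31 in the low set. The remaining fibrillar genes were lower, Col11a1 at 3.87 to 8.42 CPM, Col5a3 at 1.25 to 2.65 CPM, Col5a2 at 0.574 to 2.18 CPM and Col3a1 at 0.239 to 1.41 CPM.

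The FACIT list had 8 tested genes, of which Col19a1 and Col20a1 (above) were the only calls with light damage, beside 25.8% of all genes. The collagen IX chains, partners of collagen II in the vitreous, were each higher on average in the high set of every group. Over all libraries the sets overlapped for Col9a1 and Col9a2. Within A74 the set difference of Col9a1 and of Col9a3 was only 0.19 (log2). Col9a1 stood at 46.6, 49.5 and 40.8 CPM in the controls, 58.7, 48.3 and 30.5 CPM with light damage and 38.1, 30.7 and 36.3 CPM with A74. Col9a2 stood at 13.4, 14.4 and 11.2 CPM in the 3 control libraries, 18.2, 17.4 and 8.92 CPM after light damage and 11.1, 6.82 and 7.77 CPM with A74. Col9a3 stood at 13.4, 15.4 and 8.16 CPM without light damage, 19.9, 16.8 and 8.07 CPM with it and 8.54, 7.60 and 7.30 CPM with light damage and A74, and its 5 high-set libraries were all above its 4 low-set libraries. A74 minus light damage was -0.80 for Col9a2 (SE 0.29, edgeR adjusted p = 0.0937) and -0.94 for Col9a3 (SE 0.36, edgeR adjusted p = 0.126).

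With the tissue set as a term these were -0.57 (SE 0.14, edgeR adjusted p = 0.0127) and -0.62 (SE 0.18, edgeR adjusted p = 0.0272). DESeq2 called Col9a2 and not Col9a3. Within the sets A74 minus light damage was -1.10 (high) and -0.11 (low) for Col9a3. Col12a1, on fibrils of stroma and tendon, stood at 17.8, 15.8 and 19.0 CPM in the controls, 17.3, 15.9 and 14.2 CPM with light damage and 16.7, 12.5 and 13.9 CPM with A74, and its groups overlapped. Col22a1 (0.787 to 1.75 CPM) and Col16a1 (1.08 to 2.65 CPM) were low, and the light damage libraries of Col22a1 did not overlap the controls (-0.50, edgeR adjusted p = 0.248).

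The clearest member to follow the anterior set was Col18a1, the basement membrane collagen that yields endostatin and is abundant in ciliary body and pigment epithelium. It stood at 54.0, 64.4 and 22.9 CPM in the controls, 74.2, 58.6 and 20.1 CPM with light damage and 34.5, 19.5 and 19.1 CPM with A74, so that all 5 high-set libraries lay above all 4 low-set libraries in every group. Group differences were 0.12 with light damage (SE 0.58, edgeR adjusted p = 0.915) and -1.07 for A74 against light damage (SE 0.61, edgeR adjusted p = 0.285). Within the sets the second was -0.94 (high, 1 library against 2) and -0.060 (low). High minus low set was 1.36, 1.71 and 0.83 (log2) in control, light damage and A74, against 0.81, 1.17 and 0.19 for Col9a3. Ltbp2, Fbln1 and Optc differed by between 2.98 and 5.16 between sets. Summed pigment epithelium markers ranged over 34.5 to 195 CPM in the controls, 84.7 to 106 CPM with light damage and 37.6 to 73.3 CPM with A74, and fibroblast, sclera and cornea markers over 31.9 to 79.8 CPM in the controls, 36.7 to 90.5 CPM with light damage and 29.8 to 59.8 CPM with A74, with Kera, a cornea keratocyte gene, at 0 counts in all 9.

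**Figure D4:**
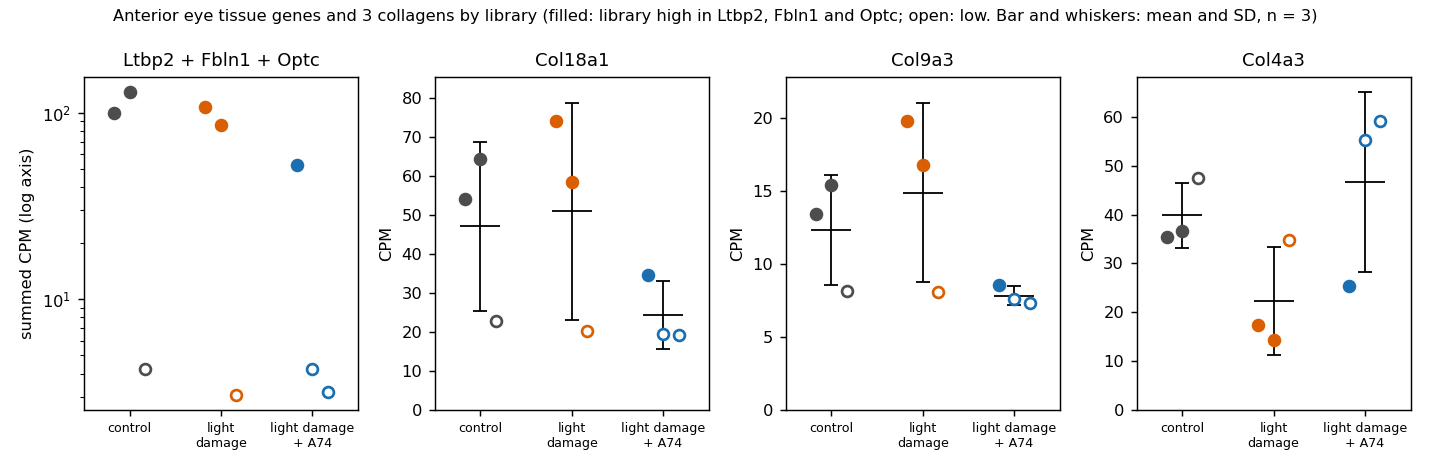
Summed CPM of Ltbp2, Fbln1 and Optc (log axis) and CPM of Col18a1, Col9a3 and Col4a3 (axes from 0, black bars for mean and SD, n = 3), with 1 point per library in each group, filled for the high set and open for the low set. Col18a1 and Col9a3 are higher in each high-set library than in any low-set library, and Col4a3 is lower in the high set of each group.

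Over the 46 tested genes, 11 were higher and 5 lower in the high set of all 3 groups, and 30 were mixed. The 5 lower were Col20a1, Col24a1, Col4a3, Col4a4 and Lama2. Light damage minus control had the same sign in both sets for 20 of the 46 genes, 6 higher and 14 lower, and opposite signs for 26. A74 minus light damage had opposite signs for 22. Shares over all genes were not counted for these signs, so none of these counts is read as particular to the members. In the low set the light damage value rests on light damage 3 against control 3, 1 library each, and a lone library is assumed to vary like the other groups. Light damage 3 had 1 Xist count and control 3 had 22253, so light damage and presence of Xist cannot be told apart in that set. Among control and light damage libraries the sets coincide with presence of Y-linked transcripts, so differences by the one and by the other cannot be told apart there.

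**Figure D5:**
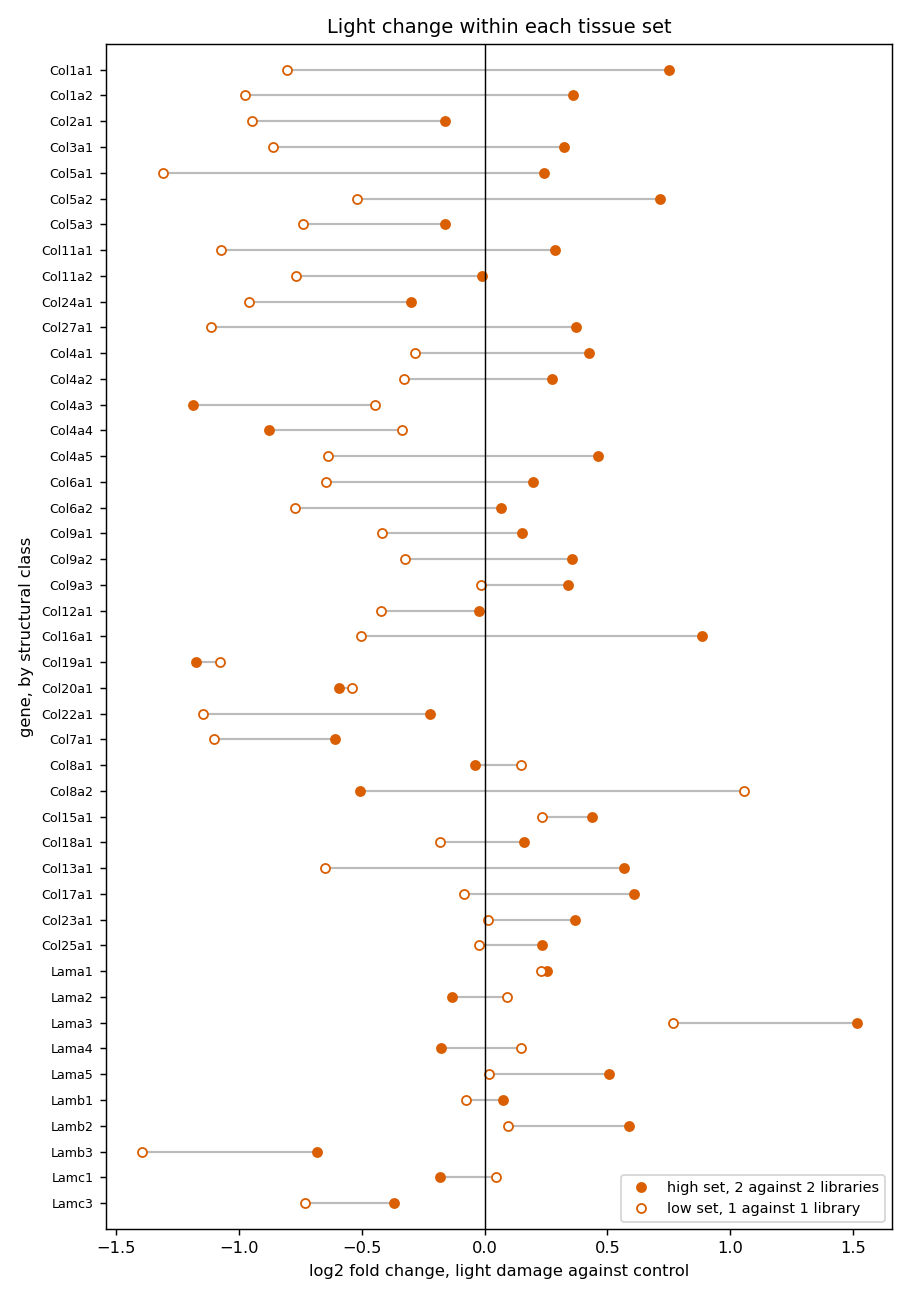
Light damage minus control as log2 fold change within the high set (2 libraries against 2) and the low set (1 against 1) for 45 tested members, by family. All 11 fibrillar collagens are below 0 in the low set, and 7 of them are above 0 in the high set; Col19a1, Col20a1 and Col7a1 are below 0 in both.

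The members not yet described gave no call. Col6a1, the main chain of collagen VI beaded filaments, stood at 41.9, 42.8 and 53.9 CPM in the controls, 50.6, 46.6 and 34.4 CPM with light damage and 37.0, 46.2 and 54.9 CPM with A74, with light damage 3 lowest and A74 3 highest. Col6a2 stayed at 5.30 to 9.98 CPM. Col6a3, not tested, had 65 counts (4.14 CPM) in A74 1 and 6 to 13 in the other 8 libraries. Col8a1 (6.40 to 14.2 CPM) and Col8a2 (0.863 to 7.78 CPM), which form the short-chain network of Descemet's membrane, did not overlap between A74 and light damage, at -0.56 (SE 0.23, edgeR adjusted p = 0.121) and -1.20 (SE 0.55, edgeR adjusted p = 0.177). Col15a1, a multiplexin near vessels, stayed at 2.90 to 5.31 CPM.

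Laminin alpha chain Lama1 of embryonic and limiting membranes stood at 10.2, 9.23 and 9.91 CPM in the controls, 12.3, 10.8 and 11.6 CPM with light damage and 11.3, 9.21 and 11.0 CPM with A74, the light damage libraries just above the controls (0.25, edgeR adjusted p = 0.157). Lama2 (at most 2.30 CPM) and Lama4 (2.04 to 3.96 CPM), the latter a vascular chain, were low. Lamb1 stood at 22.3, 25.9 and 23.1 CPM in the 3 control libraries, 26.0, 24.9 and 21.9 CPM after light damage and 24.9, 21.3 and 22.3 CPM with A74. Lamc1, the most common gamma chain, stood at 34.8, 33.4 and 28.4 CPM without light damage, 29.9, 30.3 and 29.4 CPM with it and 33.7, 30.7 and 26.4 CPM with light damage and A74. Both stayed within a narrow range, with light damage differences of 0.030 (SE 0.098, edgeR adjusted p = 0.862) and -0.11 (SE 0.095, edgeR adjusted p = 0.439). Lamb3 (0.299 to 1.21 CPM) and Lamc3 (1.33 to 3.18 CPM) were low, and Lamb3, the beta partner of Lama3, had a log2 difference of -0.90 with light damage (SE 0.51, edgeR adjusted p = 0.215) beside the 1.37 of Lama3. The 9 untested members are Col10a1, Col14a1, Col26a1, Col28a1, Col4a6, Col6a3, Col6a4, Col6a5 and Col6a6, and counts of Col6a4, Col6a5 and Col6a6 may be split among these related genes.

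A74 with light damage against control, the third comparison, gave no call at an edgeR adjusted p under 0.05, where 0.892% of all genes were called. DESeq2 called 0 as well. At an unadjusted p under 0.05 in edgeR, 0 were higher and 4 lower. The share of all genes at this looser threshold is not given, so that count shows nothing particular to the members. The members' median log2 fold change was -0.11, against -0.0024 for all genes, with 11 above and 35 below 0. Groups did not overlap for 8 genes, 1 higher and 7 lower, beside 22.8% of all genes. A setting added after the data were seen left out light damage replicate 3 and A74 replicate 1 together. With it 1 gene (Col4a3) was called higher and 3 (Col1a2, Col9a1 and Col9a2) lower, beside 417 higher and 517 lower over all genes. For the 7 genes above, A74 minus control was -0.28 for Col19a1, -0.017 for Col20a1, -0.28 for Col7a1, -0.13 for Col23a1, 0.24 for Lama3, -0.19 for Lama5 and -0.20 for Lamb2.

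Genes that process collagen include procollagen proteinases, hydroxylases, chaperones and cross-linking oxidases. Of 29 tested processing genes (31 listed), 8 rose and 2 fell with light damage, where 25.8% of all genes were called in either direction, and the difference from that share was not tested. The log2 differences were 1.04 for Bmp1, a procollagen C-proteinase (SE 0.15, edgeR adjusted p = 0.000281), and 0.86 for its enhancer Pcolce2 (SE 0.15, edgeR adjusted p = 0.000543). P4ha1, a prolyl hydroxylase subunit, fell by 0.31 (SE 0.062, edgeR adjusted p = 0.00198) and Adamts3, a procollagen N-proteinase, fell by 0.55 (SE 0.12, edgeR adjusted p = 0.00369). With A74 against light damage 7 of the 29 were lower and 1 higher, where 18.3% of all genes were called, among them Bmp1 at -1.16 (SE 0.15, edgeR adjusted p = 0.000274) and Loxl1, a cross-linking oxidase, at -1.06 (SE 0.21, edgeR adjusted p = 0.00313). P4ha1 was the 1 higher, at 0.32 (SE 0.062, edgeR adjusted p = 0.00256). None was called for A74 against control.

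Of 14 basement membrane partners, 3 rose with light damage and 1 fell, a share near the 25.8% of all genes called. Smoc1 was 0.60 (SE 0.13, edgeR adjusted p = 0.00282), Ntn4, a netrin that binds laminin gamma chains, 0.50 (SE 0.11, edgeR adjusted p = 0.00393), and Egflam, pikachurin of the photoreceptor ribbon synapse, -0.41 (SE 0.12, edgeR adjusted p = 0.0380). With A74, 3 of the 14 were lower than with light damage, led by Ntn4 at -0.74 (SE 0.11, edgeR adjusted p = 0.000501). Of 14 tested receptors (16 listed), 5 rose with light damage and 5 were lower with A74, beside 25.8% and 18.3% of all genes called in either direction. Ddr1, a collagen receptor kinase, was 0.89 with light damage (SE 0.097, edgeR adjusted p = 9.48e-05) and -0.77 with A74 against light damage (SE 0.097, edgeR adjusted p = 0.000454). Itga6, the laminin-binding integrin alpha chain, was 0.68 (SE 0.13, edgeR adjusted p = 0.00101) and -0.66 (SE 0.12, edgeR adjusted p = 0.00225). No partner and no receptor was called for A74 against control.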

How the data were processed

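RNA of 9 retina libraries was measured as whole-number counts per gene in 1 table, deposited by the authors; per the submitters' processing notes, Bowtie2, RSEM 1.3.1 and DESeq2 1.4.5 were used with build GRCm39. The counts were fitted with edgeR 4.0.16 (limma 3.58.1, R 4.3.3; TMM scaling, filterByExpr with minimum count 10, robust quasi-likelihood) over 17272 genes in 1 model with a mean per group, called at an adjusted p under 0.05; SE is the log2 fold change over the square root of F. DESeq2 1.42.0 was an alternative. CPM values use TMM; levels per kb use the longest coding transcript of GENCODE M21 (55 of 55 members matched). The members and lists were chosen with earlier results of these data known. Named genes: members of at least 10 CPM in a group or called, and up to 4 called genes of each other list. Columns without a sample: 0. Same-numbered control and light damage libraries deviated together (correlations 0.116, 0.246 and 0.311 over genes), so the block is given beside that comparison. It was fitted over all 9 libraries. The labels do not state this pairing, their library names carry other numbers, control 2 and light damage 1 correlated at 0.127, and the numbers also follow the tissue and Y-linked split. Alternatives were other scaling, no filter, DESeq2, only the groups compared, replicate block, tissue set, anterior level or Y-linked transcripts as a term, a 2-fold minimum and each library left out. The fit was tested on simulated data. The values of 1 tested member are not reported here, though it is in all counts. Library totals of 14787972 to 18740434 counts set the precision. Promoters are from RefSeq (GRCm38.p6), a build other than that of the counts.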

Additional observations from a re-analysis of the deposited data

How the results depend on the processing

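With light damage against control, the count called higher (3) was 1 with only the 2 groups compared, 1 at a 2-fold minimum and 1 to 6 on leaving out 1 replicate, 6 without light damage replicate 3. The count called lower (3) was 5 with no count filter, 5 with DESeq2, 5 with the replicate block, 6 with the tissue set as a term, 6 with the anterior level as a covariate, 1 at a 2-fold minimum and 3 to 4 on leaving out 1 replicate. For A74 against light damage, the count called higher (3) was 5 with no count filter, 1 with Y-linked transcripts as a term, 0 at a 2-fold minimum and 1 to 4 on leaving out 1 replicate (1 without light damage replicate 2). The count called lower (4) was 9 with no count filter, 0 with Y-linked transcripts as a term, 1 at a 2-fold minimum and 2 to 11 on leaving out 1 replicate (11 without light damage replicate 3). Without light damage replicate 3 the calls over all genes also moved. They went from 1587 to 2194 lower here and from 2247 to 2813 higher for light damage against control. For A74 against control, the count called lower (0) was 2 with no count filter (Col8a1 and Col9a2) and 1 with only the 2 groups compared (Col9a1). Leaving out light damage replicate 3 and A74 replicate 1 together, chosen after seeing the data, gave 6 higher and 5 lower, 5 higher and 10 lower, and 1 higher and 3 lower in the 3 comparisons. Over all genes it gave 2900 higher and 2897 lower, 2283 higher and 2235 lower, and 417 higher and 517 lower. The cause of these moves was not tested. The replicate block was fitted over all 9 libraries, with A74 libraries sharing the block of same-numbered controls and light damage libraries. Its values for light damage against control come from that fit. For A74 against light damage it added Col4a4, Col9a2 and Col9a3 to the calls and changed no other call. The deviations of A74 libraries correlated at 0.069, -0.093 and 0.14 with same-numbered controls. With same-numbered light damage libraries they correlated at 0.13, -0.067 and 0.13. Of 234 gene and setting combinations for the 13 called results, 192 kept direction and call, 42 kept direction only and 0 reversed, and 5 results were called in all 18 of these fits, which leave out the 2-fold minimum. Low counts limit the 9 untested members, of which Col6a3 and Col4a6 were called in settings that changed the filter or libraries.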
